A study of Mus musculus with 36 samples.

Results

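The comparison set BV-2 cells exposed to lipopolysaccharide (LPS) for 24 h against cells given either of the study's vehicles, DMSO or ethanol (EtOH), for the same time. Its libraries were chosen by group label alone: LPS replicates 1 to 3, DMSO replicates 4 to 6 and EtOH replicates 4 to 6, which made 9 of the 36 libraries of the series. BV-2 is an immortalised mouse microglial line, labelled wild-type, so every library came from 1 line and none from brain tissue. LPS from E. coli 026:B6 was used at 600 ng/mL after serum had been lowered to 0.1%, and vehicle was kept at 0.2% in all wells. The labels do not state which vehicle the cells with LPS alone received. Polyadenylated RNA was sequenced. Each experiment was labelled as repeated 3 times, and p-values here measured the spread between those repeats, which need not be separate cell stocks. The 9 libraries collected at 4 h entered only the comparison of 24 h with 4 h.

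LPS is carried by CD14 to the receptor TLR4, which signals through MyD88 towards NF-kB and AP-1 and through TRIF towards interferon beta. Primary response genes such as Tnf and Cxcl2 are transcribed within hours, while a later wave depends on newly made factors such as C/EBP delta, IkB zeta and the interferon-activated STAT proteins. Feedback inhibitors, among them A20, the SOCS proteins and IRAK-M, restrain the response as it proceeds.

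The 9 libraries held 14110424 to 26676607 reads in genes and detected 14734 to 15447 genes each. Mitochondrial transcripts took 1.44% of reads in LPS replicate 1 and 2.03 to 2.32% in the other 8 libraries. All 10 microglia and macrophage markers reached a mean of at least 10 normalised counts in every group, with summed levels of 50781 to 63615 in DMSO, 54465 to 62887 in EtOH and 56618 to 75838 in LPS. Astrocyte markers all stayed under that mean, with sums of 13.7 to 27.0, as did all but 1 of the lymphocyte markers, with sums of 15.8 to 25.1. Endothelial and fibroblast markers summed to 39.5 to 86.5. Oligodendrocyte markers summed to 1513 to 1985, carried by Mbp and Cnp, with all groups overlapping and with Mog and Olig1 unlisted. Neuron markers, carried by Map2, summed to 142 to 164 in DMSO, 191 to 212 in EtOH and 262 to 388 in LPS, with Snap25, Syt1, Nefm and Stmn2 unlisted. Both neuron markers that could be tested were higher with LPS, Map2 by log2 changes of 1.07 and 0.61 and Gad1, a GABA-making enzyme, by 0.99 and 1.18, but 1 of the 2 calls was lost without DMSO replicate 4, 5 or 6, EtOH replicate 4 or 5, or LPS replicate 1 or 2. The part of other cells in these results was not tested. In bulk RNA, fewer cells of a kind and less RNA per cell cannot be told apart.

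Against DMSO, 2631 of 11574 genes were called at an adjusted p below 0.05 (22.7%), of which 1404 were higher (12.1%) and 1227 lower (10.6%) with LPS (limma on log2 normalised counts, Benjamini-Hochberg adjustment). Against EtOH, 2412 of 11775 genes were called (20.5%), 1268 higher (10.8%) and 1144 lower (9.72%). Of the 11551 genes tested in both contrasts, 2005 were called in the same direction against both (17.4%), 1089 higher (9.43%) and 916 lower (7.93%), and 0 were called in opposite directions. The shared set took in 76.2% of the genes called with DMSO as control and 83.1% of those called with EtOH. Both contrasts used the same 3 LPS libraries, so the second contrast is not a separate measurement of the LPS response. Leaving out LPS replicate 3 lowered the shared set to 1187 genes, 689 higher and 498 lower. It lowered the calls to 1649 against DMSO and 1416 against EtOH. Leaving out DMSO replicate 5 or 6 gave 1705 or 1749 calls against DMSO, and leaving out EtOH replicate 5 gave 1581 against EtOH.

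The median of the smaller of each gene's 2 fold changes was 0.57 (log2) among rises and 0.50 among falls. Beyond a log2 change of 1 lay 516 calls against DMSO (4.46%) and 546 against EtOH (4.64%). Against both vehicles lay 422 genes past that size (3.65%), 267 rises (2.31% of genes tested in both) and 155 falls (1.34%). Beyond 2 lay 66 rises and 16 falls, and beyond 3 lay 18 rises and 4 falls. The rises thus reached further than the falls. LPS libraries lay beyond all 6 vehicle libraries in 1958 of the 2005 shared genes, and in 3403 of 11551 genes overall (29.5%). Protein-coding genes made up 2003 of the shared set.

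**Figure D1:**
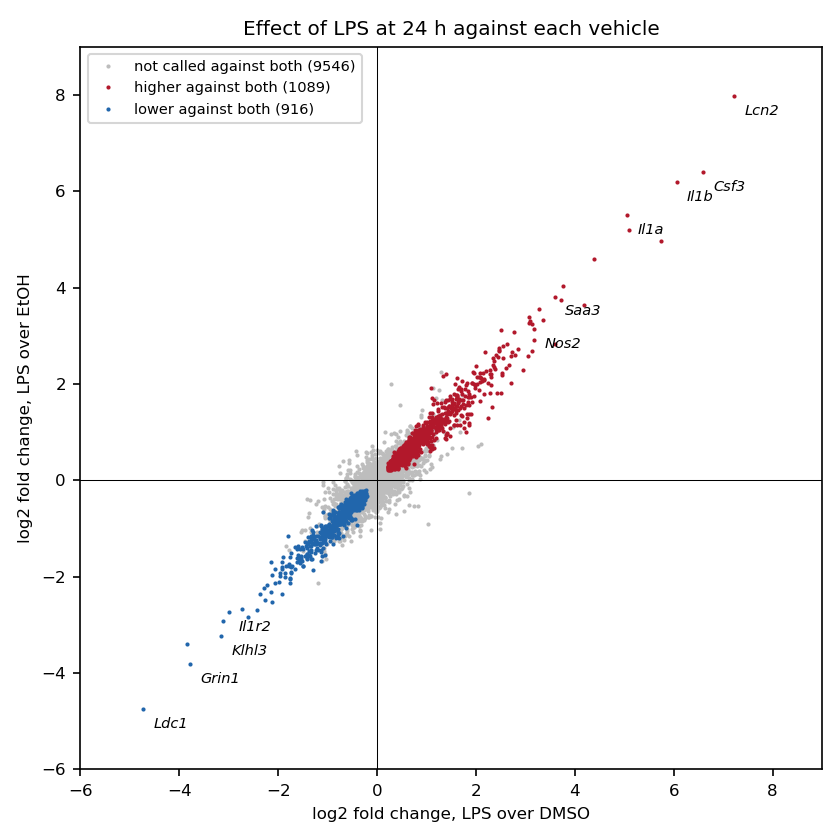
Log2 fold change of LPS over DMSO (x axis) and over EtOH (y axis) at 24 h for the 11551 genes tested in both contrasts, with the 1089 shared rises and 916 shared falls coloured. No gene called in both lies in a quadrant of opposite signs, and the rises extend further from the origin than the falls.

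The vehicles were also set against each other. Between DMSO and EtOH at 24 h, 1 of 11715 genes was called (0.00854%), with 430 genes at an unadjusted p below 0.05. On the recovered reads edgeR called 1 gene and DESeq2 called 3. DMSO and EtOH libraries of the same number deviated together (correlations 0.467, 0.368 and 0.167), and a fit blocked on replicate number called 20, all lower in DMSO, of which 8 were in the shared set. The called gene was Lars2, the mitochondrial leucyl-tRNA synthetase, lower in DMSO by a log2 difference of -1.19 (SE 0.107, limma adjusted p = 0.00265), and it was not in the shared set.

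In the values below, normalised counts are given for LPS replicates 1, 2 and 3, then DMSO 4, 5 and 6, then EtOH 4, 5 and 6, after scaling the 9 libraries together. They show 1 gene across libraries and do not rank genes, since they are not divided by length. A pair of log2 fold changes gives the DMSO contrast first and the EtOH contrast second. Exons of many named genes and list members overlap those of another gene, which leaves their reads uncertain, and only some are flagged in place. The partner had the higher mean count for Il27 (50.2, Apobr 2669), Irak3 (239, Tmbim4 1290), Fdft1 (1898, Ctsb 22035) and Dusp1 (479, Ergic1 3270). The same held for Ddit3 (727, Mars1 3810), Tirap (717, Srpr 4071) and P2ry12 (46.5, Med12l 98.5), among others.

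Secreted proteins led the rises. Lcn2, lipocalin 2, which withholds iron from bacteria by binding siderophores, lies on chromosome 2 from 32274645 to 32278264 of GRCm39. It read 3857, 6653 and 5678 in LPS, 28.3, 39.95 and 34.8 in DMSO and 15.4, 22.8 and 22.7 in EtOH. Its LPS libraries all stood far above all vehicle libraries, and DMSO libraries lay above EtOH libraries. The change was 7.22 on the log2 scale against DMSO (SE 0.18, limma adjusted p = 3.56e-09) and 7.98 against EtOH (SE 0.20, adjusted p = 1.38e-09). Csf3, the granulocyte colony-stimulating factor on chromosome 11 from 98592089 to 98594455, read 385, 652 and 454 in LPS, 3.27, 4.99 and 3.73 in DMSO and 7.71, 2.40 and 5.67 in EtOH, a change of 6.59 and 6.41 (SE 0.24 and 0.33). Vehicle libraries held only a few reads' worth of Csf3, and every LPS library lay far above them. Il1b, the interleukin-1 beta precursor on chromosome 2 from 129206490 to 129213059, read 2194, 3457 and 2571 in LPS, 20.7, 66.2 and 43.5 in DMSO and 26.98, 58.9 and 29.1 in EtOH. DMSO replicate 5 and EtOH replicate 5 were the highest vehicle libraries, still well under the lowest LPS library. Its change was 6.06 on the log2 scale against DMSO (SE 0.32, limma adjusted p = 8.22e-07) and 6.19 against EtOH (SE 0.26, adjusted p = 1.03e-07). Il1a, interleukin-1 alpha, on chromosome 2 from 129141530 to 129151892, read 671, 796 and 709.5 in LPS, 16.3, 22.5 and 23.6 in DMSO and 11.6, 15.6 and 18.4 in EtOH, a change of 5.06 and 5.51. Its LPS libraries lay far above both vehicles, which overlapped each other.

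The 300 bases around the start of Lcn2, Il1b and Il1a (250 before, 50 after) are shown because these genes led the rises, and that of Ldc1, described further on, because it led the falls. They are RefSeq sequences of GRCm38.p6, a build other than that of the files, and all lie on the minus strand. Capitals mark matches to any of the motifs NF-kB (GGGA, any base, TT, any base, CC), ISRE (GAAA, any 2 bases, GAAA), C/EBP (TTNNGNAAT), AP-1 (TGANTCA) and GAS (TTCNNNGAA), searched on both strands. Il1b held a C/EBP match 91 bases before the start and Il1a an AP-1 match 12 bases before it, and neither Lcn2 nor Ldc1 held any match in this window. Csf3 had no entry in the table.
Lcn2, chr2:32387690-32387989: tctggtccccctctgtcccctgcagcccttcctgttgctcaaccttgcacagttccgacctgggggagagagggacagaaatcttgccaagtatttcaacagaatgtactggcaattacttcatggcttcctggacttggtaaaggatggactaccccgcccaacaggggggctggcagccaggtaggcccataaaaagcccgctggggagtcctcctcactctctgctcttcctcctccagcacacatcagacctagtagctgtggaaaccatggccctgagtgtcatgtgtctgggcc
Il1b, chr2:129371090-129371389: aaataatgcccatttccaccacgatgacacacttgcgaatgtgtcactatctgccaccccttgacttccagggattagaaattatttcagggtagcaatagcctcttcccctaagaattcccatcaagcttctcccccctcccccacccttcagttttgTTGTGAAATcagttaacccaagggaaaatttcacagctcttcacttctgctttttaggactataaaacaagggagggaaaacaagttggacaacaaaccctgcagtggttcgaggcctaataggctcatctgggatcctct
Il1a, chr2:129309923-129310222: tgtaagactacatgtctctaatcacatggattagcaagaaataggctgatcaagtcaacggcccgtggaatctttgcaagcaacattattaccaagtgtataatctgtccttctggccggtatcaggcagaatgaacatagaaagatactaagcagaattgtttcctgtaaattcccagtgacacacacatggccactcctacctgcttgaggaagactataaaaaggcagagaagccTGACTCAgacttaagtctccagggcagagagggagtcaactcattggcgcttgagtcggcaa
Ldc1, chr4:130222246-130222545: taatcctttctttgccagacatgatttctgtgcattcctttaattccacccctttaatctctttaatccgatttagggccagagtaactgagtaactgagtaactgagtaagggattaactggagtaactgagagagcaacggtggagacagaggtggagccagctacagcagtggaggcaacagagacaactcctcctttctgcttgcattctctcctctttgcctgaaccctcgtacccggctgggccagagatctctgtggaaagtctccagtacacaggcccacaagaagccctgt

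Further interleukins and secreted factors followed. Il6, interleukin-6, read 73.8, 77.8 and 56.6 in LPS, 3.27, 1.25 and 2.49 in DMSO and 1.28, 1.20 and 4.25 in EtOH, and Il36a and Il36g, epithelial and myeloid members of the interleukin-1 family, changed as well (Il36a by 5.09 and 5.19, Il36g by 3.73 and 3.75). All LPS libraries of the 3 genes lay above all vehicle libraries. Saa3, a serum amyloid A, read 29432, 61607 and 37018 in LPS, 2469, 4738 and 3267 in DMSO and 2648, 4224 and 2154 in EtOH, a change of 3.59 and 3.81. It was already abundant in vehicle cells, unlike Csf3 or Il6. Wfdc17, a secreted WAP-domain protein of activated macrophages, rose by 4.19 and 3.64, and Ccl7, a monocyte chemokine, by 3.27 and 3.56. Cp, ceruloplasmin, a copper-bearing ferroxidase, rose by 3.13 and 3.24, but its exons overlap those of Hps3, so its reads are uncertain.

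Several leading rises were not secreted. Pou2f2, the octamer-binding factor Oct-2, read 4087, 6225 and 5889 in LPS, 279.8, 481 and 444 in DMSO and 267, 384 and 333 in EtOH, a change of 3.76 on the log2 scale against DMSO (SE 0.20, limma adjusted p = 8.22e-07) and 4.03 against EtOH (SE 0.16, adjusted p = 9.13e-08). Its lowest LPS library lay far above its highest vehicle library. Nos2, the inducible nitric oxide synthase, read 5721, 9956 and 6731 in LPS, 499, 1258 and 827 in DMSO and 694, 901 and 895 in EtOH, a change of 3.17 and 3.14. Asb2, a substrate receptor of a ubiquitin ligase, rose by 3.37 and 3.32. Urah, an enzyme of urate breakdown, read 50.7, 91.3 and 83.3 in LPS, 1.09, 0 and 0 in DMSO and 5.14, 0 and 1.42 in EtOH. DMSO cells held 1 read of Urah in all and LPS cells 228, which is 189 times as many after scaling for depth (33.5 to 7484, the 95% interval of counting error alone), so its fold change has no firm upper end.

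**Figure D2:**
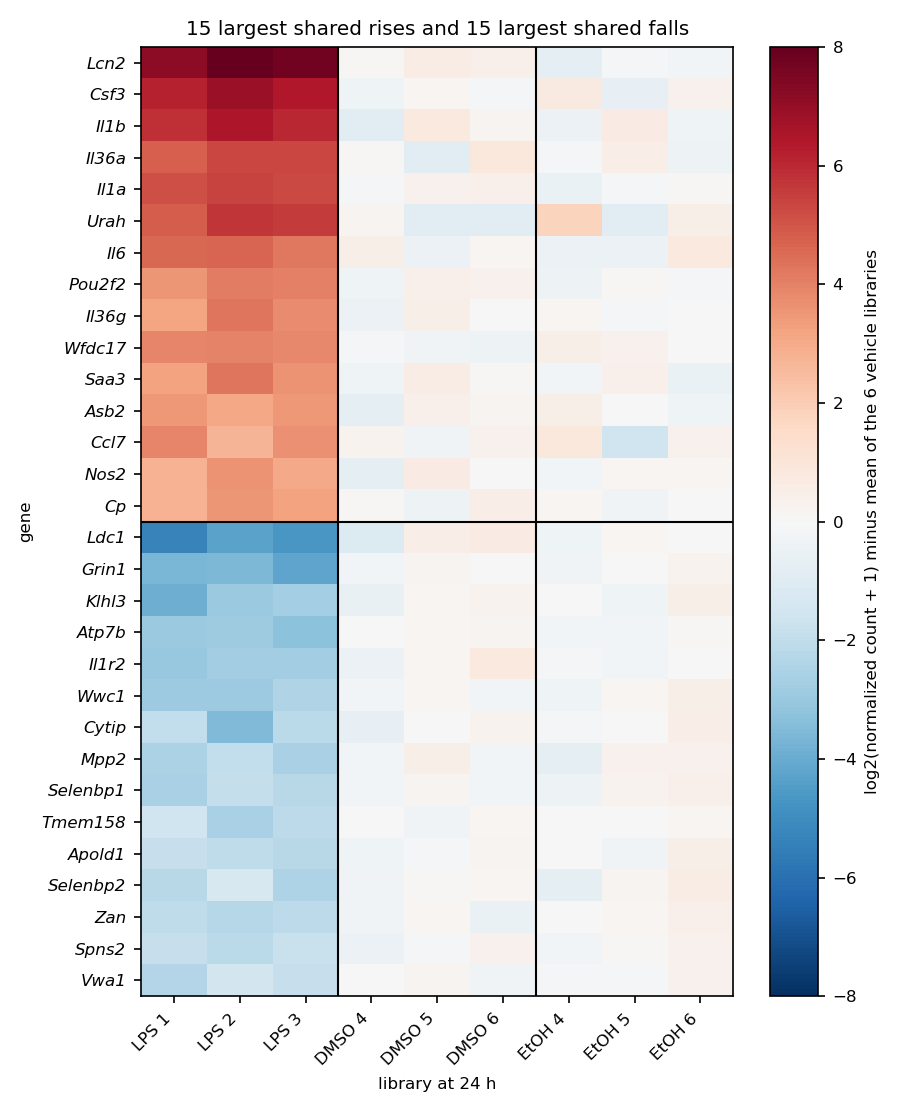
Log2 normalised count (value + 1) of the 15 rises and 15 falls with the largest change against both vehicles, less each gene's mean over the 6 vehicle libraries, with 1 column per library. Every row shows the 3 LPS columns on one side of all 6 vehicle columns, as the naming rule required.

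In the gene lists that follow, counts are of genes called against both vehicles, to be set beside 9.43% higher and 7.93% lower among all genes tested. Members below the count filter in 1 or both contrasts are left out. The LPS libraries alone could meet the filter, so a gene near 0 in vehicle cells entered only if LPS raised it. Such a gene could not be called lower, and the reverse held for genes near 0 with LPS. Shares of rises and falls are therefore partly set by the filter. The lists were also chosen with earlier results of these data known. A list's share beside that of all genes is thus a description and not a test. Most cytokine and chemokine genes tested rose. Of 18 cytokine genes tested in both contrasts, 11 rose and 0 fell, with median changes of 1.25 and 1.15, beside 0.006 and 0.011 over all genes tested. Besides the interleukins above, Tnf rose by 1.66 and 1.69 and read 5360.0, 5199 and 5341 in LPS, 1564, 1794 and 1658 in DMSO and 1926, 1694 and 1356 in EtOH. Csf2, the granulocyte-macrophage factor, rose by 1.66 and 1.94. Il27 and Ebi3, which encode the paired chains of interleukin-27, rose as well (Il27 by 2.42 and 1.80, Ebi3 by 2.18 and 2.65), as did Il18, by 0.94 and 0.96. Exons of Il27 overlap those of Apobr, which had the higher counts, so the reads of Il27 are uncertain. Il1rn, the interleukin-1 receptor antagonist, rose by 1.55 and 1.35, a smaller change than those of the cytokines it opposes. Without LPS replicate 3 the cytokine count was 7. Of 15 chemokines, 11 rose and 0 fell, with medians of 0.84 and 1.14. Ccl2, the main monocyte attractant, read 3343, 2373 and 3807 in LPS, 819.8, 567 and 821 in DMSO and 922, 609.6 and 648 in EtOH, a change of 2.10 and 2.12. Cxcl2, a neutrophil attractant, rose by 2.86 and 2.73, Cxcl10, an interferon-induced T cell attractant, by 1.86 and 1.79, and Ccl5 by 0.84 and 1.14. Ccl3 and Ccl4, neighbouring paralogs of similar sequence, rose too (Ccl3 by 0.59 and 0.70, Ccl4 by 0.65 and 0.69).

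Among 22 receptors for these ligands, 11 rose and 2 fell (9.09%, near the 7.93% of all genes). Csf3r, the receptor of Csf3, rose by 2.36 and 2.35 and read 348, 637 and 483 in LPS, 77.3, 115 and 87.1 in DMSO and 80.9, 113 and 85.8 in EtOH. Il1r1, the signalling receptor of interleukin-1, rose by 0.86 and 1.05, while Il1r2, the decoy receptor, fell. Il1r2 read 44.97, 51.9 and 51.8 in LPS, 263, 404 and 619 in DMSO and 330.1, 315 and 359.6 in EtOH, a change of -3.01 on the log2 scale against DMSO (SE 0.25, limma adjusted p = 1.41e-05) and -2.73 against EtOH (SE 0.14, adjusted p = 3.59e-07). No LPS library reached the lowest vehicle library. Cxcr4, the receptor of Cxcl12, also fell, by log2 changes of -1.59 and -1.60. Cx3cr1, the fractalkine receptor of microglia, rose by 1.22 and 1.28, and Tnfrsf1b, a receptor of Tnf, by 1.22 and 1.21.

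The receptor for LPS itself was not called. Tlr4 read 703, 835 and 732 in LPS, 776, 838 and 970.0 in DMSO and 782, 848 and 882 in EtOH, with changes of -0.19 and -0.15 (limma adjusted p = 0.225 and 0.308), and Ly96, which encodes its partner MD-2, and Myd88 were not called against either vehicle. Of 22 genes of LPS sensing and Toll-like receptors, 7 rose (31.8%) and 4 fell (18.2%). Cd14 rose by 0.90 and 0.89, Tlr2, the receptor of lipopeptides, by 0.75 and 0.96, and Tlr9, a receptor of CpG DNA, by 1.73 and 1.33. Irak3, encoding the inhibitor IRAK-M, rose by 2.17 and 2.09 and read 344, 708 and 449 in LPS, 90.4, 115 and 112 in DMSO and 92.5, 126 and 118 in EtOH, with all LPS libraries above the vehicles. Exons of Irak3 overlap those of Tmbim4, which had the higher counts. Tlr5, the flagellin receptor, Tirap, Traf6 and Sigirr fell, with the largest changes at -0.61 and -0.61 for Tlr5. Without DMSO replicate 5 the falls numbered 2.

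NF-kB subunits and the inhibitors that NF-kB induces rose in 17 of 22 genes with 0 falls, at medians of 0.74 and 0.73. Nfkb1, which encodes p105 and p50, rose by 1.55 and 1.61 and read 4064, 4769 and 4281 in LPS, 1490.3, 1584 and 1385 in DMSO and 1380.3, 1532 and 1374 in EtOH. Nfkbia, encoding IkB alpha, rose by 1.35 and 1.51, Nfkbiz, encoding IkB zeta, a cofactor of late genes such as Lcn2 and Il6, by 1.83 and 1.74, and Bcl3 by 1.95 and 2.24. Ikbke, a kinase that phosphorylates interferon regulatory factors, rose by 2.34 and 2.54, and Traf1, an adaptor of Tnf receptors, by 1.97 and 1.75. Tnfaip3, encoding A20, passed the test against DMSO alone, at 0.39 and 0.30 (limma adjusted p = 0.0494 and 0.111). Of 14 C/EBP and myeloid factors, 4 rose (28.6%) and 2 fell (14.3%). Cebpd, C/EBP delta, read 1742, 2222 and 2169 in LPS, 299, 399.5 and 404 in DMSO and 290.3, 376 and 279 in EtOH, a change of 2.47 and 2.70, and Cebpb rose by 0.48 and 0.59. Nr4a3, an orphan nuclear receptor, and Bhlhe40, a circadian repressor, fell (Nr4a3 at -1.78 and -1.79, Bhlhe40 at -1.34 and -1.37).

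Type I interferon response genes rose. All 30 of its genes tested in both contrasts rose, with medians of 1.04 and 1.08, and the count stayed between 26 and 30 when any 1 library was left out. Isg15, a ubiquitin-like modifier, read 407, 447 and 371 in LPS, 111, 147 and 153 in DMSO and 123, 148 and 162 in EtOH, a change of 1.57 and 1.5001. Ifit1, which binds foreign RNA ends, read 727, 942 and 649.6 in LPS, 229.7, 386 and 264 in DMSO and 254, 319 and 374 in EtOH, a change of 1.41 and 1.29. In both genes the LPS libraries lay above every vehicle library. Mx1 rose by 1.75 and 1.49, Cmpk2 by 1.56 and 1.15 and Irf7, the factor that amplifies interferon production, by 1.06 and 1.32. Stat2, an interferon-activated factor, rose by 0.77 and 0.69. Ifit, Oas and Mx genes have close paralogs, so reads may be shared between family members. Guanylate-binding proteins and immunity-related GTPases, which attack the vacuoles of pathogens, rose in 8 of 10 genes with 0 falls, for example Gbp5 by 1.93 and 1.63 and Gbp3 by 1.69 and 1.90. Of the suppressors of cytokine signalling, Socs1 rose by 1.83 and 1.38, Socs3 by 1.84 and 1.85 and Cish by 1.81 and 1.28, and not every member tested was called. Of 24 interferon regulatory, STAT and SOCS genes, 9 rose (37.5%) and 1 fell (4.17%, under the share over all genes). That fall was lost when any of 6 of the 9 libraries was left out. Irf1 was not called against either vehicle, and Irf8 was called against DMSO alone.

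Of 21 promoters found for the interferon list, 11 held the ISRE letters, 6 the AP-1, 6 the GAS, 4 the C/EBP and 0 the NF-kB letters. The promoter of Isg15 is shown because it was the largest rise of that list with an ISRE match, chosen after values were seen. It held 3 ISRE matches in a row, 78, 72 and 66 bases before the start, overlapping each other and marked in capitals (RefSeq, GRCm38.p6, minus strand).
Isg15, chr4:156200769-156201068: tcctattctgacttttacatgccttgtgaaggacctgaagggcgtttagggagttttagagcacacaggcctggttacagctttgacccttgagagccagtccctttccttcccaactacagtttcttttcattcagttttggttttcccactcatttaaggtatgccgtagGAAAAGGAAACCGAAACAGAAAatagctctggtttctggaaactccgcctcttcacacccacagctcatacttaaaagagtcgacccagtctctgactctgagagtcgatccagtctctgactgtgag

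Over all genes tested, 3.20% of 9142 promoters held ISRE letters, against 8.40% of 857 promoters of shared rises and 2.35% of 724 of shared falls. NF-kB letters were found in 2.80% of shared rises, 1.24% of shared falls and 1.25% of all promoters. AP-1 letters were found in 8.63% of shared rises and 7.04% of shared falls, against 5.03% of all. C/EBP letters were found in 9.57% of shared rises, 5.80% of shared falls and 6.92% of all, and GAS letters in 9.68%, 5.25% and 6.76%. Among the 208 promoters of rises beyond a log2 change of 1 the shares were 19.2% for ISRE, 15.9% for AP-1, 14.9% for C/EBP, 14.4% for GAS and 5.29% for NF-kB. Among the 55 of rises beyond 2 they were 10.9%, 14.55%, 7.27%, 9.09% and 5.45% in the same order, so only the small NF-kB share was not lower at the higher limit. Among the 117 of falls beyond 1 they were 1.71%, 8.55%, 6.84%, 6.84% and 1.71%. These shares describe letters in a 300 base window and say nothing of binding.

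Class I antigen presentation rose in most genes tested. Of 18 class I genes, 12 rose and 0 fell. Tap1, the peptide transporter, rose by 0.80 and 0.78, the immunoproteasome subunits Psmb8 by 0.47 and 0.54 and Psmb9 by 0.77 and 0.53, and Nlrc5, a class I transactivator, by 0.74 and 0.64. Exons of Tap1 and Psmb9 overlap, so their reads are uncertain. Of 4 class II genes tested, 3 rose, Cd74, the invariant chain, by 0.55 and 0.56. H2-Aa, H2-Ab1, H2-Eb1, H2-DMb1 and Ciita were below the filter in 1 or both contrasts, so the count does not speak for the class II chains. Exons of H2-DMa, 1 of the 4 tested, overlap those of Brd2, which had far higher counts. Activation surface molecules rose in 12 of 24 genes with 0 falls. Cd69 rose by 2.53 and 2.23, Fas, the death receptor, by 2.01 and 2.15, Cd38, an NAD hydrolase, by 1.52 and 1.56, and Cd86, a costimulator, by 0.90 and 0.90. Cd40 rose only by 0.38 and 0.46. Cd274, encoding PD-L1, rose by 1.46 and 1.55, though its exons overlap Plgrkt.

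Of 13 genes of nitric oxide, itaconate and prostaglandin synthesis, effectors of activated macrophages, 6 rose (46.2%) and 2 fell (15.4%). Acod1, which makes itaconate from an intermediate of the citrate cycle, read 6013, 9945 and 8196 in LPS, 654, 1155 and 1081 in DMSO and 664, 878 and 713 in EtOH, a change of 3.07 and 3.40. Ass1, which resupplies arginine, rose by 1.07 and 0.99. Arg1, arginase 1, which draws on the same substrate as Nos2, read 5.77, 10.2 and 5.66 in LPS, 39.2, 63.7 and 57.2 in DMSO and 37.9, 64.9 and 49.6 in EtOH, a change of -2.73 on the log2 scale against DMSO (SE 0.33, limma adjusted p = 0.000173) and -2.68 against EtOH (SE 0.34, adjusted p = 0.000205). Its LPS libraries were all under its lowest vehicle library. Of the cyclooxygenases, Ptgs2 rose by 1.49 and 1.42 and Ptgs1 fell by log2 changes of -0.83 and -1.02. With any of the 3 DMSO libraries left out, 1 of the 2 falls was called.

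Superoxide-forming oxidase and antioxidant genes rose in 9 of 15 with 0 falls. Cybb, the catalytic gp91phox chain, read 5693, 10845 and 8001 in LPS, 1311, 2338 and 2133 in DMSO and 1469.5, 2276 and 1717 in EtOH, a change of 2.08 and 2.14, while Cyba, its partner chain, rose by 0.45 and 0.48. Of the cytosolic parts of the complex, Ncf4 rose by 0.86 and 0.98 and Rac2 by 0.92 and 1.06, and Sod2, the mitochondrial superoxide dismutase, by 1.15 and 1.24. Of 17 Nrf2 targets 3 were higher (17.6%) and 2 lower (11.8%), beside 9.43% and 7.93% of all genes, with 6 higher without LPS replicate 1 and 1 without LPS replicate 3. Hmox1, heme oxygenase 1, fell by log2 changes of -0.62 and -0.60 and Osgin1 by -1.14 and -0.96, while Slc7a11, the cystine carrier, passed against EtOH alone, at 0.38 and 0.57. Of 12 iron genes 5 rose (41.7%) and 1 fell (8.33%, near the 7.93% of all genes). Slc11a1, the phagosomal metal transporter, rose by 2.06 and 2.14, Tfrc, the transferrin receptor, by 1.09 and 1.21, and Fth1, ferritin heavy chain, by 0.69 and 0.64. Acute phase and secreted defence proteins, which share Lcn2, Saa3 and Cp with the lists above, rose in 8 of 9 genes tested, at medians of 2.79 and 2.60, among them Hp, haptoglobin, by 2.36 and 2.48 and S100a8 by 2.79 and 2.60. Of the 22 members of that list, only these 9 passed the filter in both contrasts. Slpi, a protease inhibitor, rose by 1.98 and 1.92.

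**Figure D3:**
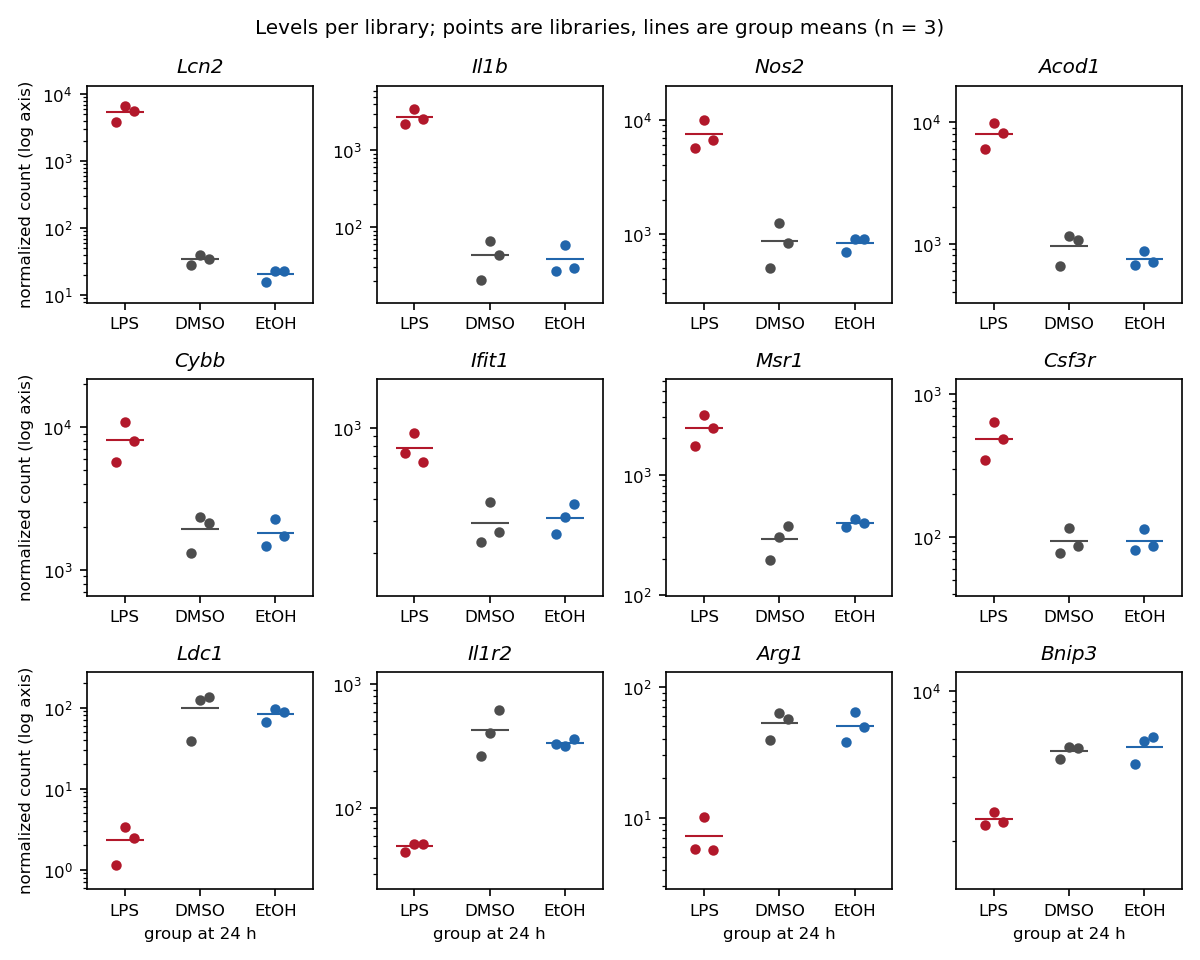
Normalised count on a log axis for 12 genes in each of the 9 libraries at 24 h, with points for libraries and a line for the group mean. LPS points lie above both vehicles for Lcn2, Il1b, Nos2, Acod1, Cybb, Ifit1, Msr1 and Csf3r and below them for Ldc1, Il1r2, Arg1 and Bnip3.

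Of 17 phagocytic, Fc and scavenger receptors, 6 rose (35.3%) and 2 fell (11.8%, beside 7.93% of all genes). Msr1, the class A scavenger receptor, read 1729.8, 3109 and 2435 in LPS, 196, 303 and 377 in DMSO and 364, 423 and 393 in EtOH, a change of 3.06 and 2.58, and Marco, of the same class, rose by 2.23 and 2.01. Of the Fc receptors, Fcgr1 rose by 1.28 and 1.10 and Fcgr2b by 0.99 and 0.85. Mrc1, the mannose receptor, fell by log2 changes of -1.24 and -1.23 and read 12.7, 23.7 and 15.4 in LPS, 26.1, 38.7 and 67.2 in DMSO and 42.4, 38.5 and 40.4 in EtOH. The 2 falls became 0 without DMSO replicate 6, and 1 without DMSO replicate 5, LPS replicate 1 or LPS replicate 3. Of 12 complement genes 5 rose (41.7%) and 1 fell (8.33%, near the 7.93% of all genes). C3 rose by 1.57 and 1.79 and C3ar1, the C3a receptor, by 1.25 and 1.11. The fall was Itgax, an integrin chain of complement receptor 4, at -0.58 and -0.60, whose call was lost without DMSO replicate 5 or EtOH replicate 6. Itgam, of complement receptor 3, rose by 0.72 and 0.64.

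Of 30 microglial identity genes, 21 were tested against both vehicles. Gpr34, Olfml3, Siglech, Mertk, C1qa, C1qb and C1qc were below the filter in 1 or both contrasts, and Sall1 and Fcrls were unlisted. Of the 21 tested, 7 rose (33.3%) and 2 fell (9.52%, near the share over all genes). The 7 rises became 2 without LPS replicate 3 and 4 without LPS replicate 2 or EtOH replicate 4. Selplg rose by 1.27 and 1.20 and Tmem119 by 0.44 and 0.65. Apoe, the lipid carrier, fell by log2 changes of -0.85 and -0.66 and Gpnmb by -0.95 and -0.77. Trem2 and Csf1r were not called against either vehicle. P2ry12 read 53.05, 58.6 and 57.4 in LPS, 16.3, 24.97 and 52.2 in DMSO and 39.8, 44.5 and 71.6 in EtOH, with vehicle libraries on both sides of the LPS libraries, and was not called. Matrix proteases rose in 8 of 14 with 0 falls, with 4 rises without LPS replicate 3 and 5 without LPS replicate 2 or EtOH replicate 4. Mmp13, a collagenase, read 1184, 1591 and 919 in LPS, 103, 169.8 and 128 in DMSO and 181, 131 and 167 in EtOH, a change of 3.18 and 2.92, and Mmp9, a gelatinase, rose by 1.96 and 2.23. Inflammasome genes rose in 8 of 12 and fell in 1 (8.33%, near the share over all genes). Casp4, the sensor of cytosolic LPS, rose by 1.44 and 1.43 and Nlrp3 by 0.52 and 0.54. Aim2, the sensor of cytosolic DNA, fell by log2 changes of -0.38 and -0.41, a call that was lost when any of 7 of the 9 libraries was left out. Apoptosis and survival genes rose in 8 of 25 with 0 falls. Integrins and adhesion genes rose in 6 of 18 (33.3%) and fell in 2 (11.1%), with 1 fall without DMSO replicate 5 or EtOH replicate 6 and 3 without LPS replicate 2. Lysosomal genes rose in 6 of 23 (26.1%) and fell in 3 (13.04%), among the latter Ctsk, cathepsin K, at -1.35 and -1.18. Without LPS replicate 3 the lysosomal counts were 3 and 1, and the falls were also 1 without DMSO replicate 5, EtOH replicate 5, EtOH replicate 6 or LPS replicate 1.

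The falls were led by genes of varied function. Ldc1 on chromosome 4 from 130102902 to 130116194 read 1.15, 3.38 and 2.43 in LPS, 39.2, 122 and 136 in DMSO and 66.8, 96.2 and 87.2 in EtOH, a change of -4.74 on the log2 scale against DMSO (SE 0.48, limma adjusted p = 5.34e-05) and -4.75 against EtOH (SE 0.36, adjusted p = 6.01e-06). DMSO replicate 4 was the lowest vehicle library, and it was still far above the LPS libraries. Grin1, the obligatory subunit of NMDA receptors, read 28.8, 30.4 and 19.4 in LPS, 314, 436 and 362 in DMSO and 304, 387 and 455 in EtOH, a change of -3.78 on the log2 scale against DMSO (SE 0.20, limma adjusted p = 8.22e-07) and -3.82 against EtOH (SE 0.21, adjusted p = 6.03e-07). LPS and vehicle libraries did not overlap. Klhl3, a ubiquitin ligase adaptor, read 9.23, 18.04 and 21.8 in LPS, 101, 167 and 187 in DMSO and 146, 118 and 211 in EtOH, and Atp7b, a copper-exporting ATPase, read 25.4, 28.2 and 20.2 in LPS, 198, 226 and 240.0 in DMSO and 179.8, 177 and 218 in EtOH. Their LPS and vehicle libraries did not overlap, and the changes were -3.16 and -3.24 for Klhl3 and -3.12 and -2.92 for Atp7b. Wwc1, a scaffold of the Hippo pathway, fell by log2 changes of -2.62 and -2.84, Cytip, a regulator of cell adhesion, by -2.42 and -2.70, and Mpp2, a membrane scaffold, by -2.36 and -2.37. The exons of Mpp2 overlap those of Cd300lg. Selenbp1 read 597, 945 and 767 in LPS, 2998, 4086 and 3079 in DMSO and 2672, 4236 and 4734 in EtOH, a change of -2.15 and -2.32. It and Selenbp2, at -1.96 and -1.99, are near-identical copies, so their reads may be shared. Spns2, the exporter of sphingosine-1-phosphate, fell by log2 changes of -1.86 and -2.004, with exons that overlap Mybbp1a. Tmem158, Apold1, Zan and Vwa1 completed the 15 largest falls, Tmem158 at -2.06 and -2.14, Apold1 at -1.97 and -2.11, Zan at -1.92 and -2.36 and Vwa1 at -1.86 and -1.93.

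Genes of glycolysis fell more often than they rose. Of 25 genes of glycolysis, lactate and the hypoxia response that drives them, 13 fell and 2 rose, with medians of -0.29 and -0.26. The changes were small: Slc2a1, the main glucose carrier, fell by log2 changes of -0.61 and -0.69, Pfkp, phosphofructokinase, by -0.78 and -0.87, Hk1, hexokinase 1, by -0.60 and -0.57, and Gapdh by -0.42 and -0.32. Ldha and Pgk1 were lower in value but not called (Ldha at -0.18 and -0.22, Pgk1 at -0.24 and -0.25). Bnip3, a mitophagy receptor, read 2387, 2732 and 2457 in LPS, 4852, 5476 and 5411 in DMSO and 4553, 5835 and 6118 in EtOH, a change of -1.06 and -1.11, and Egln3, an oxygen-sensing hydroxylase, changed by -1.54 and -1.65. Hif1a itself rose by 0.53 and 0.47, and Slc2a6 by 0.64 and 0.77. The list held 7 falls without LPS replicate 3 or EtOH replicate 6, and 8 without EtOH replicate 5. Of 24 genes of the citrate cycle, 3 rose (12.5%, beside 9.43% of all genes) and 0 fell, with Idh1 at 0.65 and 0.86.

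Among lipid genes, sterol synthesis rose in 14 of 24 genes with 0 falls, at medians of 0.36 and 0.32, but leaving out LPS replicate 3 gave 5, EtOH replicate 4 gave 6, EtOH replicate 6 gave 8 and LPS replicate 2 gave 9. Of its enzymes, Hmgcs1 rose by 0.42 and 0.37 and Fdft1 by 0.51 and 0.40. Exons of Fdft1 overlap those of Ctsb, which had far higher counts. Fatty acid synthesis rose in 6 of 20, or 3 without LPS replicate 3. Of 17 genes of cholesterol efflux and lipid droplets, 6 fell and 3 rose. Abca1, the cholesterol exporter, fell by log2 changes of -0.62 and -0.57, Plin2, a droplet coat protein, by -0.48 and -0.55, and Hilpda, a droplet lipase inhibitor, by -1.19 and -1.30. Dgat2, which makes triglycerides, rose by 0.66 and 0.91.

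Immediate early genes fell more often than they rose. Of 30 AP-1, Egr and MAP kinase phosphatase genes, 10 fell and 3 rose, with medians of -0.19 and -0.27. Fosb fell by log2 changes of -1.58 and -1.65, Dusp1, a phosphatase that shuts off p38, by -0.85 and -1.04, and Jun by -0.32 and -0.35, while Fos rose by 0.73 and 0.57 and Zfp36, which destabilises cytokine mRNA, by 0.79 and 0.74. Exons of Dusp1 overlap those of Ergic1, which had the higher counts. The count of falls was 4 without LPS replicate 3, 5 without DMSO replicate 5 or 6, and 6 without EtOH replicate 5, EtOH replicate 6 or LPS replicate 1. Of 23 ATF4 genes 4 fell (17.4%) and 2 rose (8.70%, near the share over all genes), with 1 rise without EtOH replicate 4, 5 or 6 or LPS replicate 3. Ddit3, encoding CHOP, fell by log2 changes of -1.21 and -1.31 and Trib3 by -0.81 and -0.87. Exons of Ddit3 overlap those of Mars1, which had the higher counts. Of 22 unfolded protein response genes, 3 fell (13.6%, beside 7.93% of all genes) and 0 rose, with Dnajb9 at -0.69 and -0.67.

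Lists of proliferation and core machinery had shares of calls close to, or under, those of all genes, 9.43% higher and 7.93% lower. Of 28 mitosis genes 1 rose (3.57%) and 0 fell, with 0 rises without LPS replicate 3 and 2 without LPS replicate 2, and Mki67 read 9024, 8816 and 8721 in LPS, 10339, 9548 and 8091 in DMSO and 10013, 10613 and 8904 in EtOH, with overlap between all groups. Of 30 DNA replication genes 3 rose (10.0%). That count was 0 without LPS replicate 1 or 3, DMSO replicate 6 or EtOH replicate 6, 1 without DMSO replicate 5 or EtOH replicate 5, and 6 without LPS replicate 2. Among 25 cell cycle entry genes 1 rose (4.00%) and 3 fell (12%), with Cdkn1c, a cyclin-dependent kinase inhibitor, at -1.42 and -1.63, and 2 rose without LPS replicate 1 or 2. Of 80 ribosomal protein genes 0 were called against both vehicles, of 77 nuclear-encoded respiratory chain genes 0 rose and 1 fell, and of 11 mitochondrially encoded genes 0 were called. Without LPS replicate 2, 4 ribosomal and 3 mitochondrially encoded genes fell and 5 respiratory chain genes rose. LPS replicate 1 had the lowest mitochondrial share. Of 26 proteasome genes 3 rose (11.5%), or 1 without DMSO replicate 5 or 6, EtOH replicate 6 or LPS replicate 3. Of 13 metallothionein and zinc transporter genes 1 rose and 1 fell, the fall being Mt1 at -0.77 and -0.57, and 2 fell without LPS replicate 2.

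**Figure D4:**
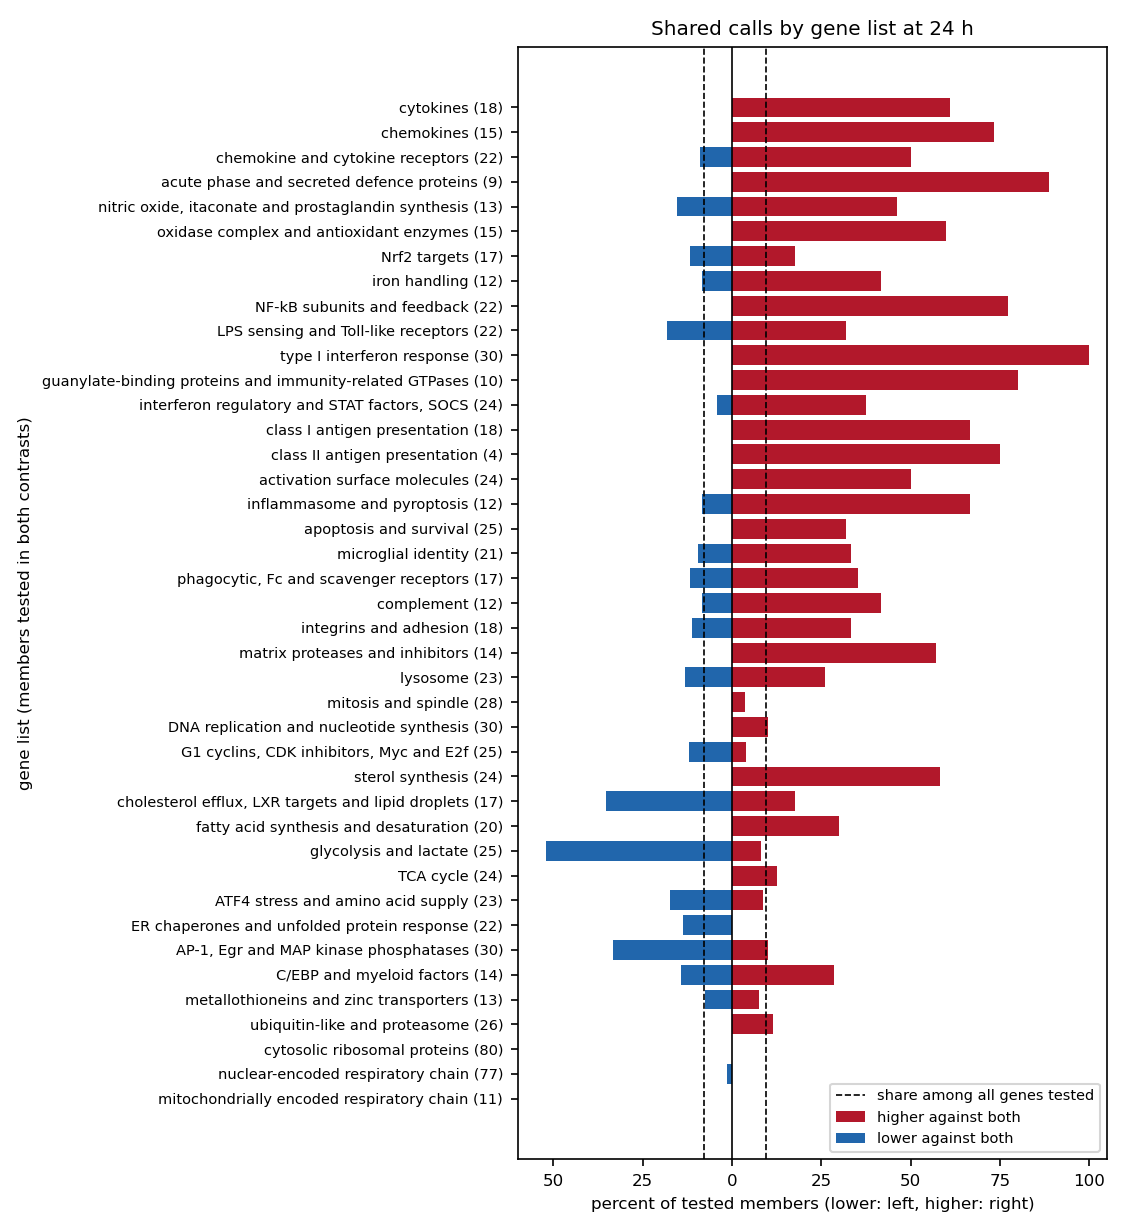
Share of each gene list's members, in percent of those tested against both vehicles, that rose (to the right) or fell (to the left) against both, with dashed lines at the shares among all genes tested and without the lists of cell type markers. Of the lists drawn, interferon, acute phase, GTPase and NF-kB lists lie furthest right, glycolysis furthest left, and ribosomal proteins at 0.

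The 4 h libraries served to date these changes. A joint limma model of both times was fitted to read numbers recovered from the deposited values and scaled together, and its difference of log2 fold changes, 24 h less 4 h, was tested per gene. It called 1109 of 11847 genes in the DMSO contrast (9.36%), 590 more positive (4.98%) and 519 more negative (4.38%) at 24 h. In the EtOH contrast it called 1086 of 12002 (9.05%), 563 more positive (4.69%) and 523 more negative (4.36%). Of the 2005 shared genes, 437 were called in both contrasts with 1 sign (21.8%). Among shared rises the effect was more positive at 24 h for 221 genes and more negative for 22. Among shared falls it was more negative at 24 h for 192 and more positive for 2. The shared genes were chosen for an effect at 24 h, and the same 24 h libraries entered the time difference. Genes that responded at 4 h alone were left out, so these uneven splits are partly set by the choice. Over all genes tested the calls split near evenly, as given above. Of the others, 328 were called in 1 contrast and 1240 in neither. Without DMSO replicate 6 the DMSO contrast held 631 calls, and the EtOH contrast held 696 without EtOH replicate 6 and 707 without LPS replicate 3. A block on replicate number gave more calls in each contrast and in the shared set, with counts given further on.

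Lcn2 rose further between the times. Its effect was 3.80 and 3.67 at 4 h and larger at 24 h by 3.43 and 4.30 (limma adjusted p = 0.0119 and 0.00173). Csf3r, Msr1 and S100a8 were also larger at 24 h, Csf3r by 1.86 and 2.04, Msr1 by 1.81 and 1.78 and S100a8 by 2.07 and 2.09. Wfdc17 grew by 2.37 and 1.72 and Pim2, a survival kinase, by 1.90 and 1.68. Wnt6 grew by 1.78 and 2.24, Crybg2 by 1.79 and 2.09 and Dennd2b by 1.89 and 2.1997, the last pair with exons that overlap those of Cd52 and Akip1. Urah differed by 4.11 and 3.18 on few reads, and both calls were lost with edgeR (Benjamini-Hochberg adjusted p = 0.281 and 0.710) and DESeq2 (0.0973 and 0.534). The counts by list took only genes of the shared set with the time difference called in both contrasts. More positive at 24 h were 5 of 9 acute phase genes, 3 of 15 oxidase genes and 3 of 12 complement genes. In these lists 0 genes were more negative. Chemokine and cytokine receptors (3 of 22) and phagocytic receptors (3 of 17) also held genes more positive at 24 h, with 1 more negative in each. By the same count 223 genes were more positive and 214 more negative among all 11551 tested. Among shared rises alone the split was 221 to 22, so few negative genes are not particular to lists made mostly of rises. Genes outside the shared set were not counted.

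Other rises were smaller at 24 h than at 4 h. Cxcl2 had an effect of 5.67 and 5.80 at 4 h and differed at 24 h by -2.81 and -3.07 (limma adjusted p = 0.000375 and 0.00104), and Ccl4 had an effect of 3.06 and 3.01 and differed by -2.41 and -2.32. Both remained above the vehicles. Il1b, at 6.58 and 7.18 at 4 h, was not called as different between the times. Chemokines of the shared set held 4 genes with smaller effects at 24 h, Ccl3, Ccl4, Cxcl2 and Cxcl3, and 1 with a larger effect. Of the interferon list, 3 of 30 were smaller at 24 h, Ifit1 among them, and 0 larger. Atf3, a stress factor, had an effect of 1.32 and 1.80 at 4 h and none that was called at 24 h, a difference of -1.48 and -2.08.

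Among falls, Ldc1 and Mpp2 had the most negative time differences of the genes named. The 4 h effect of Ldc1 was 0.08 and 0.60, and the difference was -4.82 and -5.32 (limma adjusted p = 0.0213 and 0.00309). Against DMSO that call was lost with edgeR (Benjamini-Hochberg adjusted p = 0.177) and DESeq2 (0.117). For Mpp2 the difference was -4.22 and -4.69, and for Atp7b -2.91 and -3.08. Wwc1 differed by -2.60 and -2.83. Il1r2 had a 4 h effect of -0.43 and -0.17 and differed by -2.58 and -2.57. Gprc5a differed by -2.43 and -2.64, Pgf, a vascular growth factor, by -2.32 and -3.12 and Lmcd1 by -2.32 and -2.43. The Pgf call against DMSO was lost without a filter on low counts (limma adjusted p = 0.0580) and without DMSO replicate 5, DMSO replicate 6, LPS replicate 1 or LPS replicate 3 (0.0746 to 0.0929). In these 8 genes the time difference had the same sign against both vehicles, as the naming rule required.

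**Figure D5:**
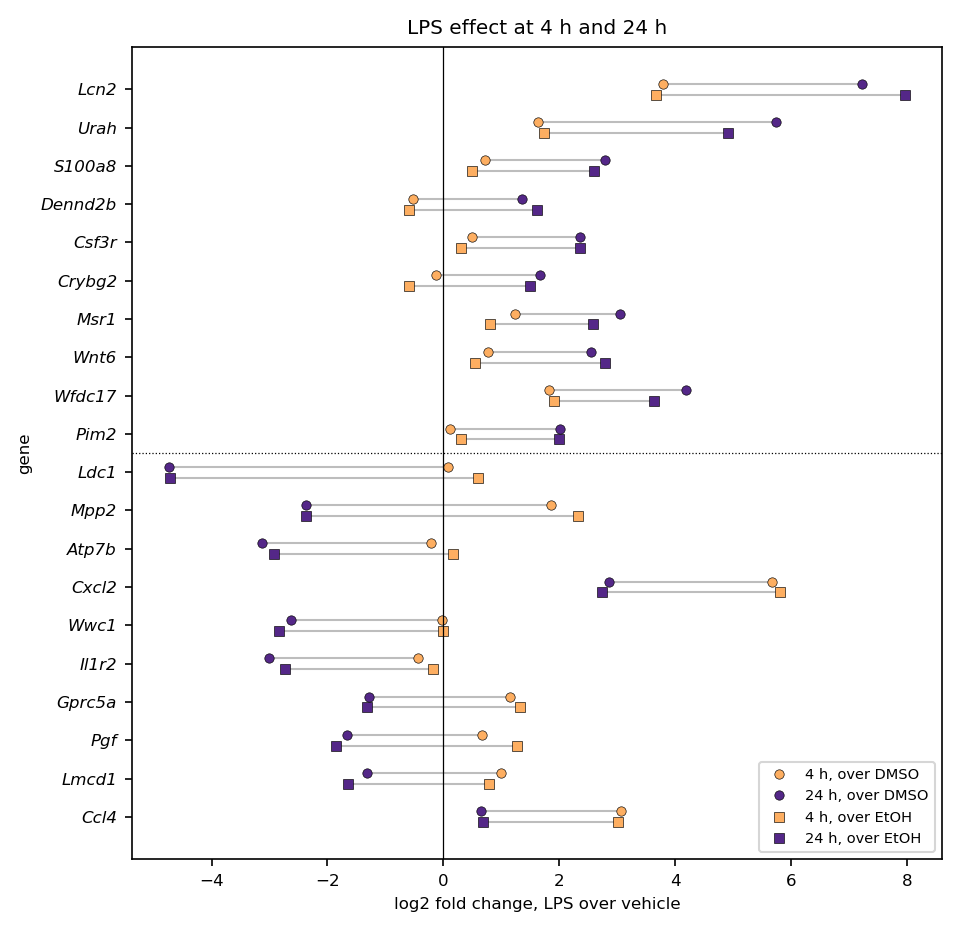
Log2 fold change of LPS over vehicle at 4 h (orange) and at 24 h (purple) from the joint fit for the 10 genes whose effect was most positive and the 10 whose effect was most negative at 24 h relative to 4 h, with circles for DMSO, squares for EtOH and a line joining the times. The upper 10 genes lie further right at 24 h, and among the lower 10 Cxcl2 and Ccl4 stay above 0 while the rest end below it.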

How the data were processed

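RNA was sequenced from 36 libraries, and the 9 at 24 h in this comparison plus 9 at 4 h were used. Per the submitters' processing notes, the tools were FastQC 0.12.1, cutadapt 4.4, Trimmomatic 0.39, HISAT2 2.2.1, HTSeq 2.0.3, R 4.3.1 and DESeq2 1.40.2 on build GRCm39. The strand setting of counting is not given in the sources used here. The deposited values are a signal, read counts per gene divided by DESeq2 size factors by the authors, separately in each of the 6 tables used. The authors' columns of fold changes, errors, test statistics and p-values in those tables were not used.

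Within each table, genes with at least 10 normalised counts in at least 3 of 6 libraries were kept, and log2(value + 1) was fitted with limma 3.58.1 (R 4.3.3; mean-variance trend, Benjamini-Hochberg adjustment, threshold 0.05). Fold changes are on that scale, which understates changes of low genes. Dividing by the value of 1 read returned whole reads for 623766 of 623766 values (100%, tolerance 0.01 read), with libraries of 14110424 to 26676607 reads at 24 h. These reads, scaled together by the median of ratios, gave the printed levels and the 24 h less 4 h model, and edgeR 4.0.16 and DESeq2 1.42.0 were run on them as alternatives. Python 3.11.15 with pandas 2.3.3, numpy 2.4.6, scipy 1.17.1 and matplotlib 3.10.9 did the rest. Counting intervals cover counting error only.

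Groups came from the labels. The members and gene lists were chosen with earlier results of these data known. Named genes were the 15 largest rises and falls against both vehicles (mean of at least 50, libraries apart), the 10 most positive and 10 most negative time differences, and members of 47 lists. On data simulated at the depth of the DMSO contrast, 86.0% of changes of log2 size 1 and 100% of size 2 were recovered, and for the EtOH contrast 88.8% and 100%. For the time difference, 38.5% (DMSO) and 38.3% (EtOH) were recovered at size 1. The simulation gave every gene the same dispersion and changed only genes above a mean limit. Recovery of noisier or lower genes may therefore be less. Replicates of a group differed beyond counting noise in all 18 pairs (chi-square per degree of freedom 4.83 to 31.0), so none was a copy. DMSO and EtOH libraries at 24 h with the same number correlated at 0.167 to 0.467 in their deviations. The main test of DMSO against EtOH was unpaired, and a block on that number was run as an alternative. Alternatives were the tool, the filter, the pseudocount, a fold change limit, a joint fit, replicate blocks and leaving out each library.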

Additional observations from a re-analysis of the deposited data

Results flagged for a closer look

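The effect of LPS differed between 24 h and 4 h, by the test of that difference, in 1109 genes of the DMSO contrast, in 1086 genes of the EtOH contrast, and in 437 genes of the shared set in both. Of the named genes, the log2 effect against DMSO was larger at 24 h than at 4 h by 3.43 for Lcn2, 4.11 for Urah, 2.37 for Wfdc17, 2.07 for S100a8, 1.90 for Pim2, 1.89 for Dennd2b, 1.86 for Csf3r, 1.81 for Msr1, 1.79 for Crybg2 and 1.78 for Wnt6. The difference, 24 h less 4 h, was -4.82 for Ldc1, -4.22 for Mpp2, -2.91 for Atp7b, -2.81 for Cxcl2, -2.60 for Wwc1, -2.58 for Il1r2, -2.43 for Gprc5a, -2.41 for Ccl4, -2.32 for Pgf and -2.32 for Lmcd1. Cxcl2 and Ccl4 were still higher with LPS at 24 h, and the other 8 were lower.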

How the results depend on the processing

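No call of a gene named above changed direction under any alternative run. Of 4073 recomputed fold changes of 296 gene results at 24 h, 3985 stayed on their side of the threshold, 79 (in 24 results) lost the call and 9 (in 5 results) gained it. With other tools, filters, pseudocounts or the joint fit, calls numbered 2508 to 2813 against DMSO, 2294 to 2736 against EtOH and 1893 to 2227 against both. Requiring a log2 change above 1 left 516, 546 and 422, and for the time difference 238 in the DMSO contrast, 286 in the EtOH contrast and 117 shared. Leaving out 1 library gave 1649 to 2780 calls against DMSO, 1416 to 2504 against EtOH, 1187 to 2070 against both, 631 to 969 and 696 to 1043 for the time difference against DMSO and EtOH, and 297 to 400 shared. The upper ends exceeded the full fits for calls against DMSO (2631), against EtOH (2412) and against both (2005). For the time difference they did not. The cause of these shifts was not tested. DMSO against EtOH gave 3 genes with DESeq2, 0 with all 9 libraries in 1 fit, 20 with a replicate block and 1 without any 1 library. No paired analysis of LPS with vehicle was run, because LPS replicates 1 to 3 and vehicle replicates 4 to 6 share no number at 24 h. The series lists LPS replicates 1 to 3 beside vehicle replicates 4 to 6 in turn, but no label ties them. Whether LPS and vehicle libraries in that order deviated together was not tested. The fits of LPS against vehicle were unpaired, so any variation shared in that order would lie in their errors and p-values. Between 4 h and 24 h, numbers were shared without a label that ties them, with correlations of 0.150 to 0.281 (LPS), 0.00484 to 0.366 (DMSO) and 0.0161 to 0.312 (EtOH), and all 6 LPS but 4 of 6 DMSO and 4 of 6 EtOH libraries correlated best with their own number. A replicate block on those numbers gave 1701 time differences against DMSO, 1477 against EtOH and 628 shared. Time differences of named genes stayed on their side in 455 of 468 values. The call for Urah was lost with edgeR (Benjamini-Hochberg adjusted p = 0.281 and 0.710) and DESeq2 (0.0973 and 0.534), that for Ldc1 against DMSO with edgeR (0.177) and DESeq2 (0.117), and that for Pgf against DMSO without a filter (0.0580) or without DMSO replicate 5, DMSO replicate 6, LPS replicate 1 or LPS replicate 3 (0.0746 to 0.0929). Depth limits Urah, Csf3, Ldc1, Il6 and Il36a, each with few reads in the lower group. Il6 held 6 reads in DMSO and 9 in EtOH, and Il36a 9 in DMSO and 11 in EtOH.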

Other observations

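Of the genes called in a single contrast, 620 were called against DMSO alone and 388 against EtOH alone. The unpaired test of DMSO against EtOH called 1 gene, which was in neither set. With the replicate number as a block, 20 genes were called (limma adjusted p below 0.05), all lower in DMSO. Of these 20, 5 were among those called against DMSO alone (Dab2, Lpxn, Irf8, Cadps and Ly6c1) and 4 among those called against EtOH alone (Plau, Dcstamp, Itga6 and Chst3), which are named here after their values were seen. For the rest of the genes called in a single contrast, a difference between the vehicles was not shown. In the shared set, 2 genes were not annotated as protein coding: Mir8116, listed as a miRNA, was lower, and Ighv1-63, an immunoglobulin variable segment, was higher. Mir8116 read 2.31, 9.02 and 7.28 in LPS, 25.04, 18.7 and 12.4 in DMSO and 16.7, 18.04 and 21.98 in EtOH, on the precursor gene and not on a mature arm, in RNA selected by its poly(A) tail.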
